A study of Mus musculus with 6 samples.

Results

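Potassium channel genes were followed by RNA sequencing in primary hepatic stellate cells of the mouse, the retinoid-storing pericytes of the liver that turn into matrix-producing myofibroblasts after injury. They were taken as every row of the count table whose symbol begins with Kcn, followed by letters, a number and at most 1 further letter. This gave 71 of 22966 genes, of which 29 were detected, meaning 10 or more counts in 3 or more of the 6 libraries. The 3 Cre libraries are set against the 3 flox libraries. The labels give all 6 the same genotype entry, BucheHep, and treatment with CCl4, a liver toxin used to induce fibrosis, and the growth protocol names BucheΔHep mice kept on chow. The series' design text describes a knockout of Buche, the butyrylcholinesterase gene, in hepatocytes, so the groups rest on the sample titles alone. The Cre driver, the age and sex of the animals, the CCl4 dose and any sorting of the cells are not given in the labels. The labels do not tie a library to an animal, and a p-value here speaks of the spread among 3 libraries a group, part of which may be technical.

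Potassium channels let potassium ions leave the cell and thereby hold the membrane potential negative. Voltage-gated pore subunits open on depolarisation, inward rectifiers and tandem-pore channels carry current near the resting potential, and a further class opens with intracellular calcium or sodium. Auxiliary subunits change the gating or surface level of the pores. In liver stellate cells and other pericytes such channels are known to bear on contraction and calcium entry. In macrophages, potassium efflux is known to precede inflammasome activation.

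The libraries held 37273142 to 41006722 counts, and CPM below are scaled by TMM factors. A floor of 3 counts was worth 0.0724 to 0.0862 CPM and covers counting error only. Every pair of libraries differed by more than sampling noise, with at least 32.0 as chi-square per gene. Flox 3 stood apart from its group: the axis of greatest variance (61.0%) placed the Cre libraries at -63.8 to -39.8, flox 1 at 64.3, flox 2 at 89.3 and flox 3 at 6.61. All 17 stellate cell markers on the list were tested and had counts, with 2 of 17 higher and 0 lower in Cre by the edgeR test (3 at an unadjusted p below 0.05, 3 called by DESeq2). Their summed level was 3136 to 4007 CPM in Cre and 2378 to 4850 CPM in flox libraries. Within that sum Vim alone held 1109 to 1997 CPM over the libraries, while Lrat held 0.124 to 2.49 CPM. Of 18 macrophage markers, 16 were lower and 0 higher in Cre by edgeR. Their summed level was 2727, 2694 and 3201 CPM in Cre 1, 2 and 3 and 18974, 24022 and 8652 CPM in flox 1, 2 and 3, and 0 of 18 were at 0 in all libraries. The macrophage sum exceeded the stellate sum in each flox library and lay below it in each Cre library. The sums run over different genes, so their order does not give the share of each cell type. In bulk libraries, fewer cells of a type and less RNA per cell cannot be told apart.

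Upstream sequences are shown for Kcnk13 and Kcnj10, which fell, and Kcnt2, which rose. RefSeq (GRCm38.p6) lists each with a single start. Each sequence is the 250 bases before that start, 5′ to 3′ on the gene's strand. For Kcnk13 and Kcnj10 it is also the GENCODE start, while for Kcnt2 the RefSeq start lies upstream of the GENCODE start used for positions. Capitals mark matches, on either strand, to 4 motifs. These were GAGGAA, the core of sites for the macrophage factor PU.1, then the AP-1 motif TGANTCA, the TATA box TATAAA and the GC box GGGCGG, and no overlap between motifs was removed.
Kcnk13, chr12:99964249-99964498, plus strand: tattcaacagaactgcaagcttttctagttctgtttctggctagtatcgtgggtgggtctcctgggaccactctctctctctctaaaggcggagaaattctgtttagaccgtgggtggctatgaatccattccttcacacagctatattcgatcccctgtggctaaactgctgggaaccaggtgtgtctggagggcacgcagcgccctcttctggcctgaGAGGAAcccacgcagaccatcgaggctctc
Kcnj10, chr1:172340960-172341209, plus strand: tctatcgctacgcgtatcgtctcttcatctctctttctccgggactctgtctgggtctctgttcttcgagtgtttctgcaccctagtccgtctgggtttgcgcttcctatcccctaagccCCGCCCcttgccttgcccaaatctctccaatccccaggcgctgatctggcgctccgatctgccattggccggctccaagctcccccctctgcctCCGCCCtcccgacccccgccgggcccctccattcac
Kcnt2, chr1:140245468-140245717, plus strand: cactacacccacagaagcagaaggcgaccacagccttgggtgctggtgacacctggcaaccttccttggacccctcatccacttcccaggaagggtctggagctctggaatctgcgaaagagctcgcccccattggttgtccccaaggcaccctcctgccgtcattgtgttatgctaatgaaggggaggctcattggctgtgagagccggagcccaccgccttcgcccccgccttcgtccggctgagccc
Kcnk13 held 1 GAGGAA match, Kcnj10 held 2 GC boxes, and the window of Kcnt2 held none of the 4 motifs. In windows not shown, Kcnq5, which rose, also held 1 GAGGAA match, while Kcna2 and Kcne3, which fell, held no GAGGAA match. The GC content was 52.8% for Kcnk13, 62.0% for Kcnj10 and 61.6% for Kcnt2. Of the 29 detected genes, 21 had at least 1 such window, 31 in all. The PU.1-type motif was in 9 of these 31 windows, against 23.3% of all 32851 windows. The AP-1 motif was in 6.45% of these and 6.75% of all windows, the TATA box in 0 of these and 12.4% of all, and the GC box in 48.4% of these and 32.7% of all. A match is a description of these letters and not a binding site.

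Levels were compared between genes as FPKM, which are per kilobase of gene length. Kcnj8, the pore of the ATP-sensitive channel of pericytes and vascular muscle, ranked first among the 29 detected genes in each of the 6 libraries. It stood at 50.1, 76.7 and 47.6 FPKM in Cre 1, 2 and 3, against 25.9, 26.2 and 66.2 FPKM in flox 1, 2 and 3. Flox 3 lay among the Cre libraries, so the groups overlapped. Tested on counts, the Cre over flox difference of Kcnj8 was 0.43 ± 0.37 in log2 units (SE, n = 3 each; edgeR adjusted p = 0.447). Without flox 3 it was 0.96 and passed (adjusted p = 0.0212), and over the alternatives the adjusted p ran from 0.0212 to 0.790. Endothelial markers, summed over 10 genes, were also highest in flox 3 and Cre 2. The sum was 2500, 4294 and 3013 CPM in Cre 1, 2 and 3 and 2306, 1855 and 5330 CPM in flox 1, 2 and 3. By edgeR, 0 of the 10 were higher and 1 was lower in Cre. Within the list, flox 3 was the highest flox library for Pecam1, Cdh5, Kdr, Tek, Stab1 and Lyve1 but the lowest for Stab2, Clec4g and Vwf. The part of these markers in the Kcnj8 level was not tested. Kcnj8 made up 51.9%, 52.5% and 60.01% of the summed FPKM of all 71 genes in Cre 1, 3 and 2, against 29.9%, 28.1% and 65.1% in flox 1, 2 and 3.

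Behind Kcnj8, the order of levels differed between libraries, also within a group. In flox 1 and 2 the next genes were Kcnk6 and Kcnn4, and in Cre 1 and 2 they were Kcnab1 and Kcnj2. In flox 3 they were Kcnk6 and Kcnj2, and in Cre 3 Kcnj2 and Kcnn4. Kcnn4, the intermediate-conductance calcium-activated channel of blood cells and fibroblasts, stood at 3.998, 5.18 and 7.10 FPKM in Cre 1, 2 and 3, against 12.6, 12.5 and 2.45 FPKM in flox 1, 2 and 3. Flox 3 was the lowest of all 6, so the groups overlapped. The log2 fold change of Kcnn4 was -0.94 ± 0.61 (edgeR adjusted p = 0.316), and -1.40 without flox 3, where it passed the threshold (adjusted p = 0.00992). Over the alternatives its adjusted p ran from 0.00992 to 0.635. The detected genes ran down to Kcnd3, a voltage-gated pore at a mean of 0.05003 FPKM. Of the 29, 20 reached 1 CPM in 3 or more libraries, here without TMM factors.

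**Figure D1:**
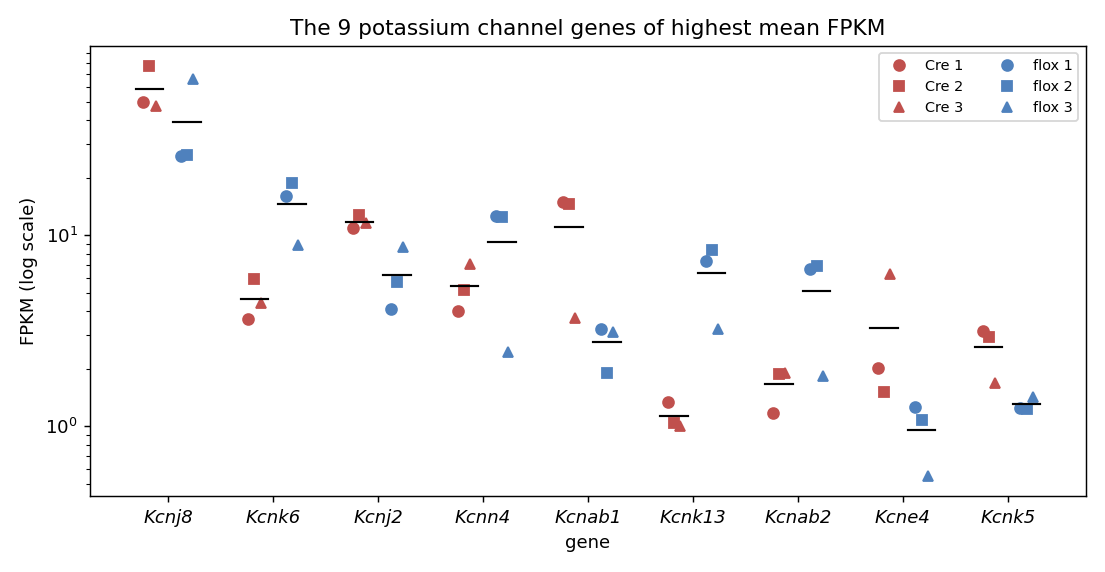
FPKM on a log scale (vertical axis) of the 9 potassium channel genes of highest mean FPKM, with the 3 Cre libraries left of the 3 flox libraries for each gene; markers are libraries and bars are group means. Kcnj8 is highest in each library, and flox 3 lies apart from flox 1 and 2 for Kcnj8, Kcnn4 and Kcnab2.

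By class, inward rectifiers took 63.5%, 70.2% and 65.6% of the summed FPKM in Cre 1, 2 and 3, against 36.2%, 37.4% and 74.3% in flox 1, 2 and 3. Tandem-pore channels, which have 2 pore-forming stretches per subunit, took 8.56%, 7.77% and 7.88% in Cre 1, 2 and 3, against 28.4%, 30.6% and 13.4% in flox 1, 2 and 3. The tandem-pore shares did not overlap between groups, but the two-sided exact permutation p of 0.1 is the smallest that 3 against 3 libraries can give. The exact permutation p was 0.2 for auxiliary subunits, 0.3 for voltage-gated pores and 0.4 for inward rectifiers and for the calcium- and sodium-activated pores, 5 classes in all. Voltage-gated pores, with 31 of the 71 genes, made up only 3.16% to 4.25% in Cre and 3.62% to 6.69% in flox libraries. The summed FPKM of all 71 genes was 90.6 to 127.9 in Cre and 86.6 to 101.7 in flox libraries, so those ranges overlapped.

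**Figure D2:**
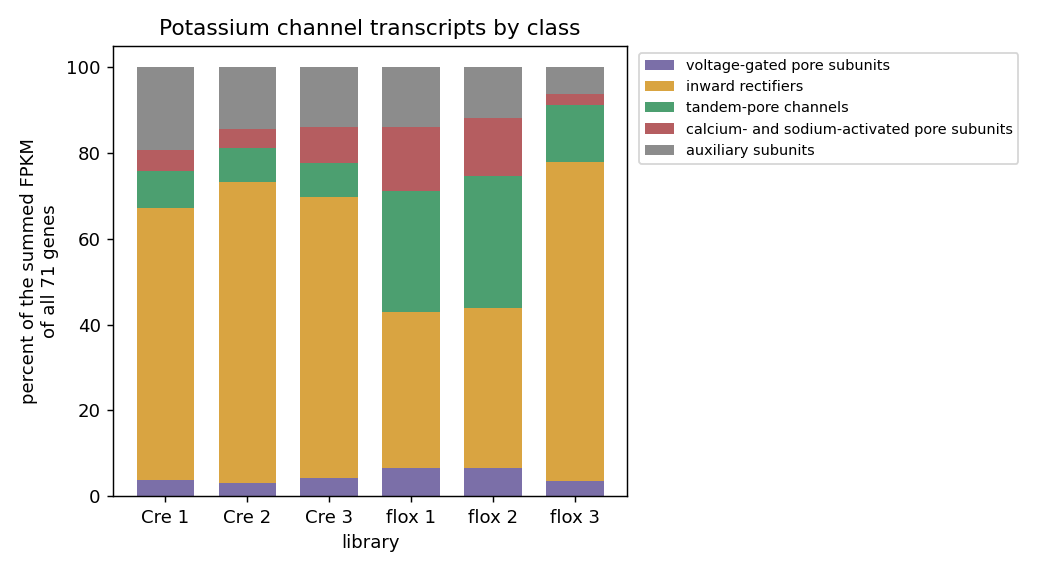
Share of the summed FPKM of all 71 potassium channel genes taken by each class (vertical axis, percent) in the 6 libraries, Cre left of flox. Tandem-pore channels take 7.77% to 8.56% in Cre libraries and 13.4% to 30.6% in flox libraries, and the inward rectifier share of flox 3 lies with the Cre libraries.

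Of the 29 detected genes, all of which entered the test, 2 were higher and 6 lower in Cre libraries when edgeR adjusted p was held below 0.05. Of all 14795 genes tested, 6.35% were higher and 8.94% lower by that rule, 15.3% in all. Groups did not overlap for 7 potassium channel genes that were higher and 8 that were lower in Cre, where 19.6% and 20.0% of all genes tested separated that way, 39.6% in all. DESeq2 called 6 higher and 8 lower (13.4% and 15.9% of all genes), and limma-voom 1 higher and 3 lower (3.91% and 5.58% of all genes). The median log2 fold change was 0.43 for the 29 genes and 0.012 for all genes, with 16 of the 29 above 0 and 13 below it. Without Cre 3 the median was -0.17, over the 33 potassium channel genes then tested. Detection and the call share the same counts. Kcng2 reached 10 counts in flox libraries only and Kcns3 in Cre libraries only, while 21 of the 29 did so in all 6. Kcng2 and Kcns3 thus passed the filter through 1 group each. The call of Kcng2 and the separation of both genes are therefore no support.

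The number of calls changed with the libraries used. Without Cre 1, Cre 2, flox 1 or flox 2, edgeR called 0 potassium channel genes and 0 of all genes, and no other tool was run there. At an unadjusted p below 0.05 there were then 17 of 33, 17 of 32, 17 of 31 and 13 of 33 potassium channel genes tested, and 3593, 3978, 3720 and 3562 of all genes. The number of all genes tested in those fits is not given. The counts therefore have no share over all genes beside them and are not read as a result about the channels. With all 6 libraries there were 16 of 29, and 5150 of all 14795 genes tested. Without flox 3, the library nearest to the Cre libraries, 4 were higher and 10 lower of 34 tested, among them all 8 called with 6 libraries. The 10 include Kcnj9 and Kcnj16, each with 0 counts in every Cre library and 1 count in flox 3. These 2 entered that test only through flox 1 and 2, so their calls follow from the filter and are no support. Over all genes 16.0% were then higher and 18.8% lower. Without Cre 3, 4 were higher and 2 lower of 33 tested, with 4 of the 8 among them, and 5.04% of all genes were higher and 3.91% lower. For the 8 called genes the direction was the same in all 121 refits in which they had a value. The groups of all 8 do not overlap, so a refit of these libraries could hardly reverse a direction, and this is no separate support.

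**Figure D3:**
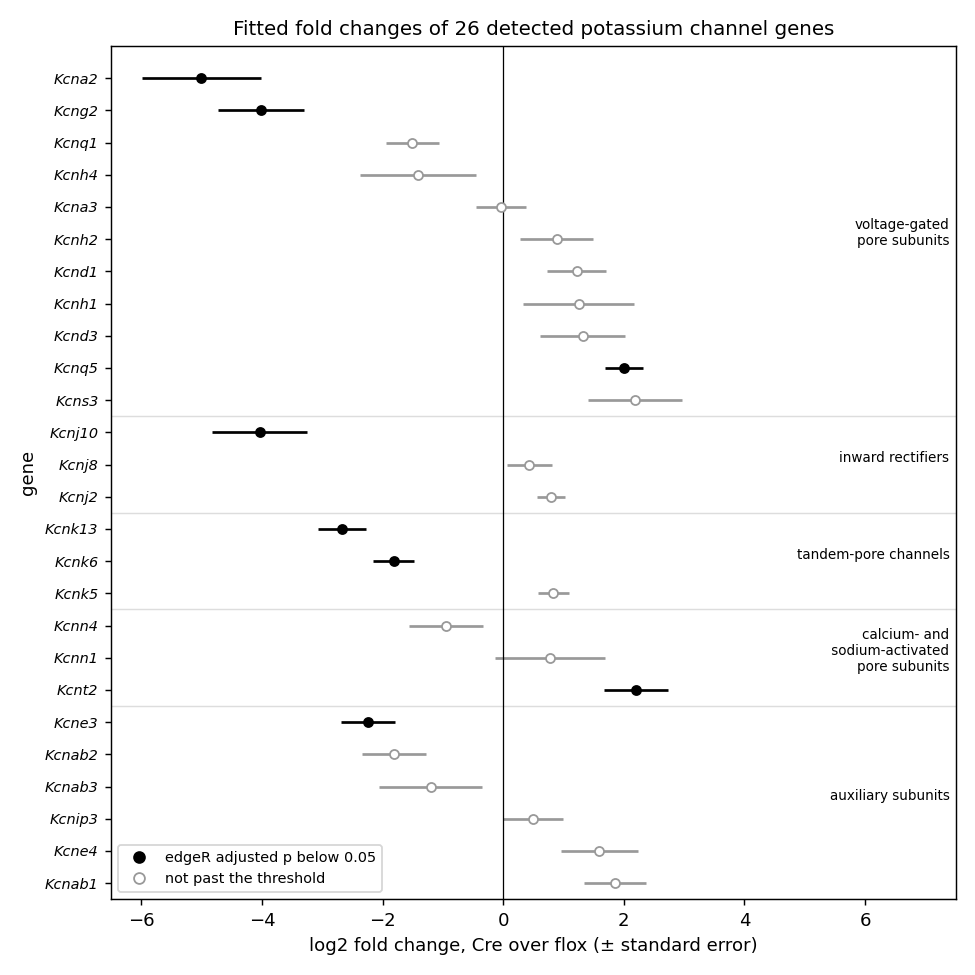
Log2 fold change, Cre over flox, with its standard error (horizontal axis) for 26 of the 29 detected potassium channel genes, grouped by class (n = 3 libraries per group). Filled points are the 8 genes at an edgeR adjusted p below 0.05, of which 6 lie left of 0 and 2 right of it.

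The 6 genes that fell came from 4 classes: the voltage-gated Kcna2 and Kcng2, the inward rectifier Kcnj10, the tandem-pore Kcnk13 and Kcnk6, and the auxiliary subunit Kcne3. Kcnk13 (chromosome 12, 99964499 to 100062682, plus strand in GRCm38), a halothane-inhibited leak channel best studied in microglia, had 7.61, 5.99 and 5.85 CPM in Cre 1, 2 and 3, against 48.0, 56.6 and 19.4 CPM in flox 1, 2 and 3. The lowest flox library was 2.55 times the highest Cre library. On the log2 scale it stood at -2.67 ± 0.40 (edgeR adjusted p = 0.0237), or 6.38 times higher in flox. Leaving out each library moved it between -3.01 without flox 3 and -2.36 without flox 2. Kcnk6 (chromosome 7, 29221926 to 29232515, minus strand), a leak channel reported in mouse macrophages to carry the efflux before inflammasome activation, had 14.0, 22.8 and 17.4 CPM in Cre 1, 2 and 3, against 70.4, 84.8 and 35.9 CPM in flox 1, 2 and 3. Each Cre library was below each flox library, with flox 3 nearest. The log2 fold change of Kcnk6 was -1.82 ± 0.34 (edgeR adjusted p = 0.0260).

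Kcna2 (chromosome 3, 107101146 to 107115005, plus strand), a Shaker-type pore best known from axons, had the lowest log2 fold change of the 29. It had 1.25, 0.459 and 0.489 CPM in Cre 1, 2 and 3, against 25.9, 41.5 and 3.26 CPM in flox 1, 2 and 3. Flox 1 and 2 averaged 10.4 times flox 3, which was itself 2.60 times the highest Cre library. The fitted log2 change was -5.004 ± 0.99 (edgeR adjusted p = 0.0274), and it did not pass in limma-voom (adjusted p = 0.175), the highest over the alternatives, against 4.23e-08 in DESeq2. Kcnj10 (chromosome 1, 172341210 to 172374085, plus strand), the inward rectifier of glia and kidney epithelium, had 0.375, 0.314 and 1.17 CPM in Cre 1, 2 and 3, against 8.25, 18.7 and 3.91 CPM in flox 1, 2 and 3. Its groups were separate, with flox 2 far above the rest. The log2 fold change of Kcnj10 was -4.04 ± 0.78 (edgeR adjusted p = 0.0267), and its adjusted p over the alternatives ran from 6.85e-07 in DESeq2 to 0.116.

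Kcng2 (chromosome 18), an electrically silent subunit that modifies other voltage-gated pores, was close to the floor in Cre. It had 3, 6 and 5 counts in Cre 1, 2 and 3, against 89, 95 and 25 counts in flox 1, 2 and 3. Kcng2 entered the test only through the flox libraries, so its fold and p are a description and its call is no support. Flox 3 was 4.29 times the highest Cre library in CPM, at a log2 difference of -4.01 ± 0.72 (edgeR adjusted p = 0.0250; limma-voom 0.0643, over a range of 4.83e-06 to 0.110). Kcne3, a single-span subunit that partners Kcnq1 in epithelia, had 0.275, 0.483 and 0.465 CPM in Cre 1, 2 and 3, against 1.44, 2.64 and 1.72 CPM in flox 1, 2 and 3. It was the only one of the 6 in which flox 3 was not the flox library nearest to the Cre libraries. The log2 difference, Cre over flox, was -2.24 ± 0.45 (edgeR adjusted p = 0.0280). Exons of Kcng2 overlap those of D330025C20Rik and exons of Kcne3 those of Gm34821, both on the opposite strand, and no label or header says if the counting used strand. The macrophage markers moved with these 6 genes, 16 of 18 falling to a summed 2694 to 3201 CPM in Cre, against 8652 to 24022 CPM in flox libraries, with flox 3 the lowest flox library in the marker sum and in 5 of the 6 genes. Their part in these falls was not tested.

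**Figure D4:**
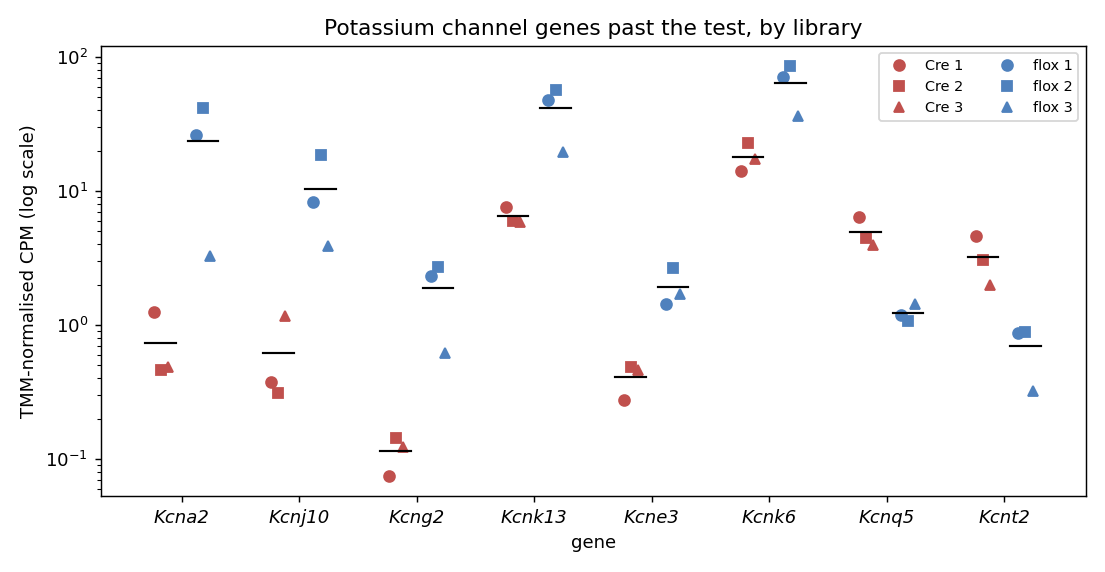
TMM-normalised CPM on a log scale (vertical axis) of the 8 potassium channel genes at an edgeR adjusted p below 0.05, with the 3 Cre libraries left of the 3 flox libraries for each gene; markers are libraries and bars are group means. Cre and flox libraries are separate for all 8, and flox 3 (triangle) is nearest to the Cre libraries for 5 of the 6 genes that fell.

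The 2 genes that rose were the voltage-gated Kcnq5 and the sodium-activated Kcnt2. Kcnq5 (chromosome 1, 21398403 to 21961942, minus strand), a subunit of the M-type current of neurons and of vascular muscle, had 6.41, 4.44 and 3.96 CPM in Cre 1, 2 and 3, against 1.18, 1.06 and 1.44 CPM in flox 1, 2 and 3. The lowest Cre library was 2.75 times the highest flox library. On the log2 scale it stood at 2.002 ± 0.31 (edgeR adjusted p = 0.0237), and leaving out each library moved it between 1.79 without Cre 1 and 2.16 without Cre 3. Kcnt2 (chromosome 1, 140246158 to 140612067, plus strand), a channel opened by intracellular sodium, had 4.58, 3.04 and 1.98 CPM in Cre 1, 2 and 3, against 0.867, 0.891 and 0.323 CPM in flox 1, 2 and 3. The groups did not overlap, and flox 3 was the lowest library. The log2 fold change of Kcnt2 was 2.20 ± 0.53 (edgeR adjusted p = 0.0409; limma-voom 0.0560, over a range of 0.000497 to 0.147). Exons of Kcnq5 overlap Gm26580 and those of Kcnt2 overlap 4930590L20Rik, both on the opposite strand. Both genes stayed low in length-scaled level, at 0.341 ± 0.0948 FPKM in Cre and 0.0765 ± 0.0166 FPKM in flox libraries for Kcnq5 and 0.400 ± 0.169 FPKM in Cre and 0.0761 ± 0.0326 FPKM in flox libraries for Kcnt2 (SD, n = 3 each).

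Among the other voltage-gated pores, 11 of the 14 tested did not pass the threshold. Kcnq1, the slow cardiac and epithelial pore that Kcne3 partners, had 0.851, 2.34 and 1.05 CPM in Cre 1, 2 and 3, against 3.89, 4.43 and 3.78 CPM in flox 1, 2 and 3. Its groups did not overlap, and the log2 fold change was -1.51 ± 0.44 (edgeR adjusted p = 0.0620; DESeq2 0.00461, over a range of 0.00461 to 0.184). Exons of Kcnq1 overlap its antisense RNA Kcnq1ot1, so the reads of the pair cannot be told apart without strand. Kcns3, another silent subunit, had 10, 23 and 13 counts in Cre 1, 2 and 3, against 6, 2 and 1 counts in flox 1, 2 and 3. Each Cre library lay above each flox library, at few counts, at 2.19 ± 0.78 (edgeR adjusted p = 0.101). Kcns3 entered the test only through the Cre libraries, so this separation is no support. Kcnh4, of the ether-a-go-go family, had 0, 8 and 10 counts in Cre 1, 2 and 3, against 11, 14 and 20 counts in flox 1, 2 and 3. Each Cre library lay below each flox library, at -1.42 ± 0.96 (edgeR adjusted p = 0.334). Kcna3, the Shaker-type pore of T cells and macrophages, overlapped between groups, with 2.38, 3.16 and 6.07 CPM in the Cre libraries and 4.91, 3.02 and 3.96 CPM in the flox libraries and a log2 fold change of -0.034 ± 0.41. Kcna2 lies 63.1 kb away on chromosome 3, and its groups did not overlap. The A-type pores Kcnd1 (1.22 ± 0.49) and Kcnd3 (1.32 ± 0.71) and the ether-a-go-go pores Kcnh1 (1.25 ± 0.92) and Kcnh2 (0.89 ± 0.60) overlapped between groups as well, and their edgeR adjusted p lay between 0.131 and 0.370. Annotated exons of Kcnd3 overlap a gene on the opposite strand, as do those of Kcnn1 and Kcnab3.

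Of the 3 detected inward rectifiers, Kcnj2 was the second by level. Kcnj2, the strong rectifier that sets the resting potential of many cells, had 55.6, 66.0 and 60.9 CPM in Cre 1, 2 and 3, against 24.1, 34.4 and 46.8 CPM in flox 1, 2 and 3. The Cre libraries lay close together and above all flox libraries, with flox 3 the highest flox library. At 0.79 ± 0.24 on the log2 scale Kcnj2 missed the threshold (edgeR adjusted p = 0.0665). DESeq2 called it (0.0196), as did edgeR without flox 3 (0.00751), and over the alternatives the adjusted p ran from 0.00751 to 0.190. Kcnj2 and Kcnj10 lay on opposite sides of 0, and their FPKM ratio within a library was 192, 272 and 67.1 in Cre 1, 2 and 3, against 3.79, 2.38 and 15.5 in flox 1, 2 and 3. This pair was chosen after its values were seen, and the exact permutation p of 0.1 is the smallest possible. As Kcnj2 and Kcnj10 each separated, in opposite directions, the ratios had to separate and this p was fixed beforehand.

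The third detected tandem-pore gene, Kcnk5, lay the other way from Kcnk6 and Kcnk13. Kcnk5, an alkali-activated leak channel of kidney and lymphocytes, had 12.8, 12.0 and 7.09 CPM in Cre 1, 2 and 3, against 5.83, 5.89 and 6.17 CPM in flox 1, 2 and 3. The flox libraries were tight, and Cre 3 stood close above them. The log2 fold change was 0.83 ± 0.26 (edgeR adjusted p = 0.0719; DESeq2 0.0151, over a range of 0.0151 to 0.219). The FPKM ratio of Kcnk5 to Kcnk6 was 0.860, 0.494 and 0.384 in Cre 1, 2 and 3, against 0.0779, 0.0653 and 0.162 in flox 1, 2 and 3. The ratios did not overlap (exact permutation p = 0.1), and this pair was also chosen after its values were seen. As Kcnk5 and Kcnk6 each separated, in opposite directions, the ratios had to separate and this p was fixed beforehand. Of the calcium- and sodium-activated pores, Kcnn1, a small-conductance channel, had 5, 22 and 30 counts in Cre 1, 2 and 3, against 17, 11 and 2 counts in flox 1, 2 and 3. Its groups overlapped, at 0.78 ± 0.91 on the log2 scale (edgeR adjusted p = 0.575).

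Among the auxiliary subunits, the beta subunits of Shaker-type channels Kcnab1 and Kcnab2 lay on opposite sides. Kcnab1 had 70.8, 70.2 and 17.95 CPM in Cre 1, 2 and 3, against 17.7, 10.7 and 15.6 CPM in flox 1, 2 and 3. Cre 1 and 2 were about alike, while Cre 3 barely exceeded the highest flox library. The fitted log2 change was 1.85 ± 0.52 (edgeR adjusted p = 0.0562; 0.0464 with library totals and 0.00234 in DESeq2, over a range of 0.00234 to 0.173). Mesothelial markers, of which 0 of 9 passed edgeR (5 at an unadjusted p below 0.05, 6 in DESeq2, 0 in limma-voom), were likewise lowest in Cre 3 among the Cre libraries, with a sum of 710, 842 and 203 CPM in Cre 1, 2 and 3, against 263, 177 and 238 CPM in flox 1, 2 and 3. Their part in the Kcnab1 level was not tested. Kcnab2 had 10.7, 17.4 and 17.9 CPM in Cre 1, 2 and 3, against 70.01, 74.4 and 17.8 CPM in flox 1, 2 and 3. Flox 3 lay within the Cre range, and the log2 fold change was -1.82 ± 0.53 (edgeR adjusted p = 0.0628). It passed in DESeq2, and in edgeR without flox 3 (0.00159), the lowest of alternatives that reached 0.198. The FPKM ratio of Kcnab1 to Kcnab2 was 12.7, 7.77 and 1.92 in Cre 1, 2 and 3, against 0.486, 0.276 and 1.69 in flox 1, 2 and 3. Those ratios did not overlap, although Cre 3 and flox 3 nearly met (exact permutation p = 0.1, also chosen after its values were seen). Exons of Kcnab1 overlap A330015K06Rik on the opposite strand and those of Kcnab2 overlap Gm16334 on the same strand.

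Kcne4, a single-span subunit that inhibits Kcna3 and Kcnq1 channels, had 4.71, 3.57 and 15.1 CPM in Cre 1, 2 and 3, against 3.39, 2.99 and 1.37 CPM in flox 1, 2 and 3. Cre 3 was several times any other library, and the remaining Cre libraries were just above the flox range. The log2 fold change was 1.59 ± 0.64 (edgeR adjusted p = 0.130), and 0.71 without Cre 3. It passed in DESeq2 at 0.0444, the lowest of alternatives that reached 0.326. Kcne3 and Kcne4 thus had fold changes of opposite sign. Kcnip3, a calcium-binding partner of A-type channels, and Kcnab3 overlapped between groups, at 0.49 ± 0.50 and -1.21 ± 0.85 on the log2 scale (edgeR adjusted p = 0.515 and 0.353).

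The other 42 genes were not detected by the rule, and 17 of them reached 10 counts in at least 1 library. They comprised 17 voltage-gated pores, 6 inward rectifiers, 7 tandem-pore channels, 4 calcium- or sodium-activated pores and 8 auxiliary subunits. Those named here were chosen after their values were seen. The highest was Kcnd2, an A-type pore, with 33, 99 and 2 counts in Cre 1, 2 and 3, against 9, 0 and 1 counts in flox 1, 2 and 3. Most of its counts came from Cre 1 and 2. Kcnma1, the large-conductance calcium-activated pore of smooth muscle, had 1, 1 and 1 counts in Cre 1, 2 and 3, against 0, 0 and 0 counts in flox 1, 2 and 3. No read was counted for Kcne1l, Kcnip4 and Kcnmb2 in any library, and 0 counts leave room for 3 in each. Further low genes with a library at 10 counts or more were Kcna7, Kcnb2, Kcnc2, Kcnc4, Kcng3, Kcnh3, Kcnip2, Kcnj14, Kcnj15, Kcnj4, Kcnk1, Kcnk2, Kcnmb1 and Kcnu1, at no more than 22 counts in any library.

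The low genes Kcnj9 and Kcnj16 each lie beside a detected inward rectifier in GENCODE M21 (GRCm38). Kcnj9, a subunit of G-protein-gated channels, lies 11.9 kb from Kcnj10 on chromosome 1 and had 0, 0 and 0 counts in Cre 1, 2 and 3, against 12, 29 and 1 counts in flox 1, 2 and 3. Its counts were highest in flox 2, as were those of each of the 6 genes that fell, Kcnj10 among them. Having counts in flox libraries only, Kcnj9 could be highest only in a flox library. The macrophage marker sum was also highest in flox 2, as were the B cell and the T and NK cell marker sums. The part of these cells in the Kcnj9 counts was not tested. Kcnj16, which pairs with Kcnj10 in glia and kidney, lies 38.2 kb from Kcnj2 on chromosome 11 and had 0, 0 and 0 counts in Cre 1, 2 and 3, against 15, 48 and 1 counts in flox 1, 2 and 3. Each Cre library lay above the flox libraries for Kcnj2 and below them for Kcnj16. Flox 3 had 1 count of each, and neither gene entered the test on 6 libraries.

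Potassium-handling genes outside the Kcn symbols were set beside the channels. Of 11 further channel and partner genes, 4 were tested and 0 passed edgeR (1 at an unadjusted p below 0.05, 1 in DESeq2, 0 in limma-voom). Abcc9, the regulatory subunit that pairs with Kcnj8, had 26.1, 42.3 and 38.0 CPM in Cre 1, 2 and 3, against 51.4, 81.5 and 34.1 CPM in flox 1, 2 and 3. The groups overlapped, at -0.65 ± 0.33 (edgeR adjusted p = 0.217), so flox 3 was the highest flox library for Kcnj8 and the lowest for Abcc9. Tmem175, a potassium-permeable channel of lysosomes, had 11.7, 11.6 and 11.9 CPM in Cre 1, 2 and 3, against 26.4, 30.8 and 14.2 CPM in flox 1, 2 and 3. The log2 difference, Cre over flox, was -1.02 ± 0.28 (edgeR adjusted p = 0.0549).

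Of the sodium-potassium pump list, 9 of 13 genes were tested and 0 passed edgeR (2 at an unadjusted p below 0.05, 2 in DESeq2, 0 in limma-voom). The pump regulators Fxyd6, at 2.03 ± 0.64, and Fxyd5, at -0.74 ± 0.24, had the lowest p, with edgeR adjusted p of 0.0763 and 0.0831. Of the cation-chloride cotransporters, 5 of 7 were tested, 1 fell and 0 rose in edgeR (4 at an unadjusted p below 0.05, 2 in DESeq2, 1 in limma-voom). Beside these partner lists, 15.3% of all 14795 genes tested passed edgeR, and 5150 had an unadjusted p below 0.05. Slc12a7, a potassium-chloride cotransporter, had 64.8, 54.8 and 75.7 CPM in Cre 1, 2 and 3, against 151.9, 173.6 and 98.9 CPM in flox 1, 2 and 3. Each Cre library was lower, with flox 3 nearest, at -1.12 ± 0.23 (edgeR adjusted p = 0.0295). Slc12a2, the inward sodium-potassium-chloride cotransporter, was at 0.44 ± 0.14 (edgeR adjusted p = 0.0785).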

How the data were processed

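Expression was measured in 6 RNA sequencing libraries of mouse stellate cells, 3 Cre and 3 flox, grouped by title. Per the labels' protocols, SMARTER mRNA libraries were made from 1.3 µg of RNA. The authors deposited raw counts per gene symbol and FPKM values, 1 column per library, and 0 columns were left unused. The deposited FPKM follow from the counts, the library totals and 1 length a gene: of 11560 genes above 50 counts throughout, 0 departed by over 1e-06. The submitters' processing notes list the builds GRCm38, mm10 and hg38 without saying what each was for. No source used here names an aligner, a counter or the use of strand.

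The test on counts used edgeR 4.0.16 (R 4.3.3). Its filterByExpr, at a minimum count of 10 and total of 15, kept 14795 genes and removed 8171, and TMM factors ran from 0.905 to 1.07. The two-sided quasi-likelihood F-test compared the groups with no covariate, with Benjamini-Hochberg adjustment over all genes tested and calls below 0.05. Standard errors are the size of the log2 change over the root of its F statistic. The method was tested on simulated data. Positions and exon overlaps are from GENCODE M21, matched by symbol. The alternatives were RLE factors, library totals, DESeq2 1.42.0, limma-voom and limma-trend (limma 3.58.1) on log2(FPKM + 1) or log2(FPKM + 0.1), other filters and thresholds, a replicate block and each library left out. Genes past the test, genes whose groups do not overlap and the 5 of highest mean FPKM are given in full, and of the partner lists those past the test and the 2 of lowest p. The members and lists were chosen with earlier results of these data known. Some genes are not reported here, though they stay in all counts and fits.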

Additional observations from a re-analysis of the deposited data

How the results depend on the processing

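With main counts of 2 higher and 6 lower, DESeq2 called 6 higher (13.4% of all genes) and limma-voom 1 higher and 3 lower (3.91% and 5.58%). Limma-trend on genes with a mean FPKM of at least 1 tested only 10 potassium channel genes. It gave 1 higher and 2 lower, with 2322 of all genes called. An adjusted p below 0.10 gave 5 higher, and its share over all genes is not given. With 1 library left out, the higher count ran from 0 to 4 and the lower count from 0 to 10. Apart from these and the replicate block below, the other settings kept both counts within 1.5 times. The median log2 fold change of 0.43 was 0.055 on log2(FPKM + 1). With 1 library left out it ran from -0.17 to 0.59, over the 31 to 34 genes then tested, and the causes were not tested. Library totals moved the median of all genes to 0.17 and the same 8 genes passed, with Kcnab1 added. The 29 detected genes became 46 at 10 counts in any library and 55 at 1 count in 3 libraries. Of 260 refitted values of the 17 genes given in full, 0 reversed, 51 lost the threshold and 14 gained it. Most of the 17 were chosen because their groups do not overlap, so few reversals were possible.

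Deviations of same-numbered Cre and flox libraries from their group means correlated at -0.033, -0.10 and -0.056, and 0 of 6 libraries correlated best with its own number. No pairing by number was seen, but deviations from the mean of only 3 libraries cannot exclude one. With a replicate block, edgeR called 0 higher and 0 lower potassium channel genes, and 0 of all genes. At an unadjusted p below 0.05 there were 13 of 29 potassium channel genes and 4296 of all genes. Genes of few counts, such as Kcng2 and Kcns3, have folds limited by depth.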
